A study of Mus musculus with 24 samples.

Results

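The presynaptic vesicle and release genes are 40 genes that encode the proteins of synaptic vesicles, of their fusion machinery and of the release site. They were taken by gene name from a list of the vesicle and release machinery, chosen with earlier results of these data known. Of the 40 listed genes 38 were found among the 32728 genes of the deposited tables, and Nrxn2 and Rims1 were not analysed here. RNA was sequenced from 24 libraries of cultured mouse neurons and astrocytes, 3 in each of 8 groups. Cultures came from mice whose Perk gene (Eif2ak3) carries loxP sites on both alleles. Perk KO cells had been given active Cre recombinase by a lentivirus in culture, and the cells called WT an inactive form, ΔCre, so that every group carries the floxed allele and a lentivirus. PERK is a kinase of the endoplasmic reticulum (ER) that restrains protein synthesis when unfolded proteins accumulate there. TM-treated cultures received tunicamycin, which blocks N-linked glycosylation and so causes ER stress, on day in vitro 14 at a dose of 5 µg/mL, for 24 hours by the treatment protocol and 20 to 24 hours by the design text, and control cultures received the solvent DMSO. The neuron groups are TM-treated Perk KO, TM-treated WT, control Perk KO and control WT, and the astrocyte groups are the same 4. The titles call the 3 libraries of a group biological replicates but give no separate culture or animal for each. The p-values therefore rest on the spread among 3 libraries of a group, and that spread may be technical.

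A presynaptic terminal releases transmitter by fusing vesicles with the plasma membrane. Transporters load the vesicles, priming factors of the active zone make them ready, and calcium binding to synaptotagmins triggers fusion by SNARE proteins, after which dynamin and its partners recover the membrane. The genes are expressed in neurons, and the set of transporters and enzymes marks whether a neuron releases glutamate or GABA.

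Promoters of 4 genes are shown, chosen as follows. Stx1a and Unc13a had 2 of the 3 largest falls with TM in WT neurons among members with a mean of at least 100 counts, Syngr1 had the largest difference between the genotypes in its TM response among such members, and Syn1 was the 1 member whose promoter held the letters TGACGTCA. Each sequence runs 5′ to 3′ on the gene's strand from 250 bases before to 50 bases after the start site, from RefSeq in GRCm38.p6. The positions are chr5:135023232-135023531 on the plus strand for Stx1a, chr8:71671708-71672007 on the minus strand for Unc13a, chr15:80091084-80091383 on the plus strand for Syngr1 and chrX:20920869-20921168 on the minus strand for Syn1. Capitals mark GGGCGG or its reverse complement CCGCCC, the GC box letters, and TGACGTCA, the full cyclic AMP response element, which is its own reverse complement.
Stx1a: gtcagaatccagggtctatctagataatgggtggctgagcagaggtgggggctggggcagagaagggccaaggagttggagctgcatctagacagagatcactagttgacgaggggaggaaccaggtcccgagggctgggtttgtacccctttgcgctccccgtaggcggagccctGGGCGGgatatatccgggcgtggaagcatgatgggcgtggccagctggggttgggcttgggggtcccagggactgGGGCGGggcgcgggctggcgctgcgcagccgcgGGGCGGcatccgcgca
Unc13a: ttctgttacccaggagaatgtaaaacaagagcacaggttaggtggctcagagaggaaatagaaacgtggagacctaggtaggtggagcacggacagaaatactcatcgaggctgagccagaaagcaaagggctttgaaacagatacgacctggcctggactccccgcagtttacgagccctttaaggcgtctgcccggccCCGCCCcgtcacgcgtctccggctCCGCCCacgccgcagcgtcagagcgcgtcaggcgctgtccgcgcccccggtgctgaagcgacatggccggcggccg
Syngr1: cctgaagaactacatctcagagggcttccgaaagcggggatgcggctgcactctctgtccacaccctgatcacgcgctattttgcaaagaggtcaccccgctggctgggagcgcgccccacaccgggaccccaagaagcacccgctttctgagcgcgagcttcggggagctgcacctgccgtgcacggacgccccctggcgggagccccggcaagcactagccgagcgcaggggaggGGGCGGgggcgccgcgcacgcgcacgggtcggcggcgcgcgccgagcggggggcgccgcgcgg
Syn1: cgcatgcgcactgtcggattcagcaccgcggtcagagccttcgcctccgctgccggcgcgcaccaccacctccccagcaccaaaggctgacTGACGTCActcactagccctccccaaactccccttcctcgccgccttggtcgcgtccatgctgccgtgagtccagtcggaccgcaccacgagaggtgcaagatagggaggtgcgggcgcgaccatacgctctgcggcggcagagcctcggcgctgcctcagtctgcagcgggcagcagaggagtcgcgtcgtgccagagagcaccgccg
Promoters were found for 30 of the 38 genes searched, 42 in all since some genes have several start sites. GGGCGG was present on either strand in 24 of these 42 promoters (57.1%), and in 35.7% of all 32851 mouse promoters of the same length. TGACGTCA was present in 1 of the 42 (2.38%) and in 1.79% of all promoters. TGATGCAA, a letter string bound by ATF4 dimers, was in 0 of the 42 and in 0.895% of all promoters. None of the 3 letter strings contains another. These matches describe letters in a window and not bound sites.

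Total counts per library were 16.03 to 25.935 M in neurons and 17.162 to 20.168 M in astrocytes. Eif2ak3, the deleted gene, stood at 9.61 to 15.9 CPM (counts scaled by library size) in TM-treated Perk KO neurons and 127 to 141 CPM in TM-treated WT neurons. In control neurons it stood at 5.07 to 5.82 CPM in Perk KO and 33.3 to 39.5 CPM in WT, so that the labels and the deleted gene go together in all 12 neuron libraries. The neuron cultures also held glial RNA: 15 astrocyte markers summed to 5277 to 6671 CPM in TM-treated Perk KO neurons, 1224 to 1355 CPM in TM-treated WT neurons, 5924 to 6212 CPM in control Perk KO neurons and 4554 to 5019 CPM in control WT neurons. The 15 neuron markers summed to 4094 to 4329 CPM in TM-treated Perk KO, 3892 to 4126 CPM in TM-treated WT, 5939 to 6638 CPM in control Perk KO and 7413 to 7855 CPM in control WT neurons. No marker of either list was at 0 in a neuron group. In control WT astrocyte cultures the 15 astrocyte markers summed to 2875 to 4151 CPM, below their sum in control WT neuron cultures. Replicates 1 and 2 of the TM-treated Perk KO neurons differed most, with a chi-square per gene of 70.6. All other pairs of neuron replicates had 7.06 to 35.6. In that group it was 35.6 for replicates 1 and 3 and 27.5 for replicates 2 and 3. Replicate 1 is the deepest library, and this value, taken on raw counts, can rise with depth. In bulk RNA, fewer cells of a type and less RNA per cell cannot be told apart.

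In control WT neurons the members spanned a wide range. Per kilobase of gene length, so that genes can be compared, the highest levels were those of Cplx1 (216 ± 17.1 CPM per kilobase, SD, n = 3), Vamp2 (215 ± 5.88), Syp (197 ± 26.8) and Cplx2 (195 ± 16). Cplx1 and Vamp2 did not differ beyond their spread, nor did Syp and Cplx2, and Sv2a came next at 135 ± 9.83. The lowest were Vamp1 (4.45 ± 0.391), Syn3 (1.06 ± 0.209), Rab3a (0.435 ± 0.126) and Syt2 (0.241 ± 0.101). Rab3a, a GTPase of the vesicle membrane, received only 5 to 36 counts in any neuron library, and 1.3% of its exon bases in GENCODE M21 are shared with another gene (Mpv17l2). In all, 15 of the 38 genes share exon bases with a neighbour, from 0.273% for Syn1 to 16.8% for Syp and 24.9% for Slc32a1, and since no strand is recorded the counts of those are less certain.

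Every tested member was higher in neuron cultures than in astrocyte cultures. In control WT cultures 37 of 37 were called higher in neurons and 0 lower, with a median log2 fold change of 6.33, where 35.8% of the 15817 genes tested were called higher. The median stayed at 6.33 with Slc17a6 set at its lower bound, since Slc17a6 had 0 counts in all 12 astrocyte libraries. It averaged 77.5 ± 13.5 CPM in control WT neurons (SD, n = 3), at least 472-fold higher than the 0.164 CPM that 3 counts in a library would give in control WT astrocytes. Rph3a stood at 236, 264 and 251 CPM in neurons and 0, 0 and 0.0531 CPM in astrocytes. Snap25 stood at 833, 810.4 and 909.5 CPM in neurons and 0, 0.219 and 0.266 CPM in astrocytes. Slc32a1 stood at 197, 216 and 159.9 CPM in neurons and 0.0472, 0.0548 and 0 CPM in astrocytes. The astrocyte cultures thus held these 4 genes at or near 0. The smallest difference was that of Rims2, with 46.6, 44.1 and 53.3 CPM in neurons and 23, 38.6 and 36.5 CPM in astrocytes, a log2 fold change of 0.60 ± 0.20 (adjusted p = 0.0226). Other small differences were those of Vamp1, Syt4, Erc2, Nrxn3 and Vamp2, with log2 fold changes of 2.25, 2.84, 3.23, 3.44 and 3.58. Syt2, at low counts, had 2.82. Snph, at a mean of 154 CPM in neurons and 13.3 CPM in astrocytes, lay close to Vamp2 in this respect. Of the 55 other presynaptic genes tested, 46 were higher and 4 lower in neurons, where 35.2% of all genes were lower. All 15 neuron markers were higher in neuron cultures. Of 14 astrocyte markers tested 6 were higher there and 5 lower, so the cultures were not set apart by these markers. Of 9 oligodendrocyte lineage markers 7 were higher and 1 lower. Of 10 microglia markers 4 were lower, and of 10 fibroblast and mural cell markers 3 were higher and 3 lower. Rab3a was under the minimum mean of 10 counts for this test. In astrocytes it had 0 or 1 count in each of 11 libraries and 11 counts in replicate 2 of the control Perk KO group.

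**Figure D1:**
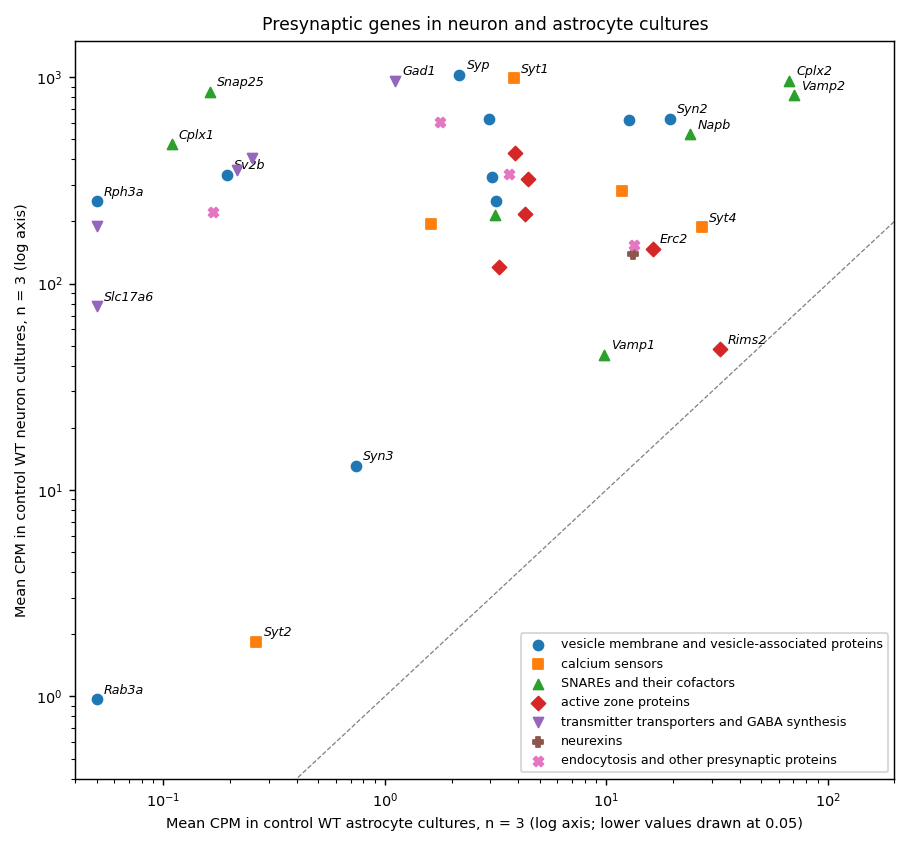
Mean level of each member in control WT neurons (vertical axis) against that in control WT astrocytes (horizontal axis), in CPM on log axes (n = 3 libraries each), with values under 0.05 drawn at 0.05 and symbols for the members' roles. Every member lies above the dashed line of equal levels, and Rims2 lies closest to it, at 44.1 to 53.3 CPM in neurons and 23 to 38.6 CPM in astrocytes.

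TM lowered most of the presynaptic genes in WT neurons. Of the 38 members, 30 were called lower with TM and 1, Syt4, higher, where 24.8% of the 15546 genes tested were called lower and 27.0% higher. The median log2 fold change was -0.73 over the members and 0.04 over all genes tested. Rph3a, Stx1a, Unc13a and Cplx2 fell furthest among members with a mean of at least 100 counts. The calls of 27 of the 30 lower members and of Syt4 held without any 1 library. The exceptions were Bsn, lost without control replicate 2 or 3 or TM replicate 1 or 2 (adjusted p up to 0.147), Pclo, lost without TM replicate 1 (0.0567), and Ppfia3, lost without control replicate 2 or TM replicate 2 or 3 (up to 0.0601). Of the neuron markers 10 of 15 were lower in the same comparison and 0 higher, among them Tubb3 at -1.38 ± 0.10 and Nefl at -1.10 ± 0.09 on the log2 scale. Of the astrocyte markers 13 of 14 tested were lower, as were 9 of 10 oligodendrocyte lineage, 5 of 8 microglia and 5 of 10 fibroblast and mural cell markers. The part of cell composition in the falls of the members was not tested.

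In Perk KO neurons fewer members passed the test. There 15 of the 38 were called lower with TM and 2, Syt4 and Syngr3, higher, where 10.8% of the 16197 genes tested were called lower and 13.1% higher. The median log2 fold change was -0.32 over the members and 0.02 over all genes. Slc17a6, Erc2, Sv2b and Rph3a fell furthest. Of the 15 lower members 14 were also called lower in WT neurons, which is 93.3% of the Perk KO list and 46.7% of the WT list, and Rims2 was the other. Over all genes 1077 were lower in both, 61.8% of the 1744 lower in Perk KO and 28.0% of the 3852 lower in WT neurons. The calls of 10 of the 15 held without any 1 library. Those of Syn2, Napb, Ppfia3, Slc17a7 and Gad2 did not: Syn2 was lost without control replicate 3 (adjusted p = 0.0568), Slc17a7 without control replicate 1 or 2 (up to 0.0579), Ppfia3 without control replicate 1 or TM replicate 3 (up to 0.053), and Napb and Gad2 without any 1 control library or TM replicate 3 (up to 0.138). The neuron markers were called lower in 12 of 15 cases and higher in 0, and 2 of 15 astrocyte markers were lower and 4 higher. Of the oligodendrocyte lineage markers 1 of 9 was lower, of the microglia markers 5 of 10, and of the fibroblast and mural cell markers 2 of 10, with 1 higher.

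The difference between the TM responses was tested as a genotype by TM interaction over the 12 neuron libraries. A positive value means a smaller fall or a larger rise in Perk KO neurons. For 17 of the 38 members it was called above 0 and for 1, Erc2, below 0, where 14.5% of the 15939 genes tested were called above 0 and 15.4% below. The median interaction was 0.40 over the members and -0.08 over all genes on the log2 scale. It was called above 0 for 16 of the 30 members that fell in WT neurons, of which 10 were not called in Perk KO neurons. With the GC correction 12 members were above 0, with those of Stx1a, Unc13a, Syt7 (adjusted p = 0.202), Rph3a (0.165) and Sv2a (0.108) lost. In a fit of all 24 libraries 13 were above 0, with Syt7, Snap25, Vamp1, Syt1 and Gad1 lost (up to 0.226) and Cplx2 added, and without a filter on low counts Vamp1 and Gad1 were lost (up to 0.0855). DESeq2 called 22. The calls of 8 of the 17 held without any 1 library: Syn2, Syngr1, Syngr3, Syt1, Vamp2, Unc13a, Slc32a1 and Sncb. Leaving out replicate 2 of the TM-treated WT neurons left 8 members above 0, replicate 2 of the control WT neurons or replicate 3 of the TM-treated Perk KO neurons left 10, and replicate 1 of the TM-treated WT neurons or replicate 2 of the control Perk KO neurons left 11. In the same test 13 of 14 astrocyte markers were above 0 and 0 below, and of 15 neuron markers 3 were above and 1 below. Of 10 oligodendrocyte lineage markers 7 were above 0 and 1 below, of 9 microglia markers 2 above and of 10 fibroblast and mural cell markers 3 above. Their part in the members' interaction was not tested.

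**Figure D2:**
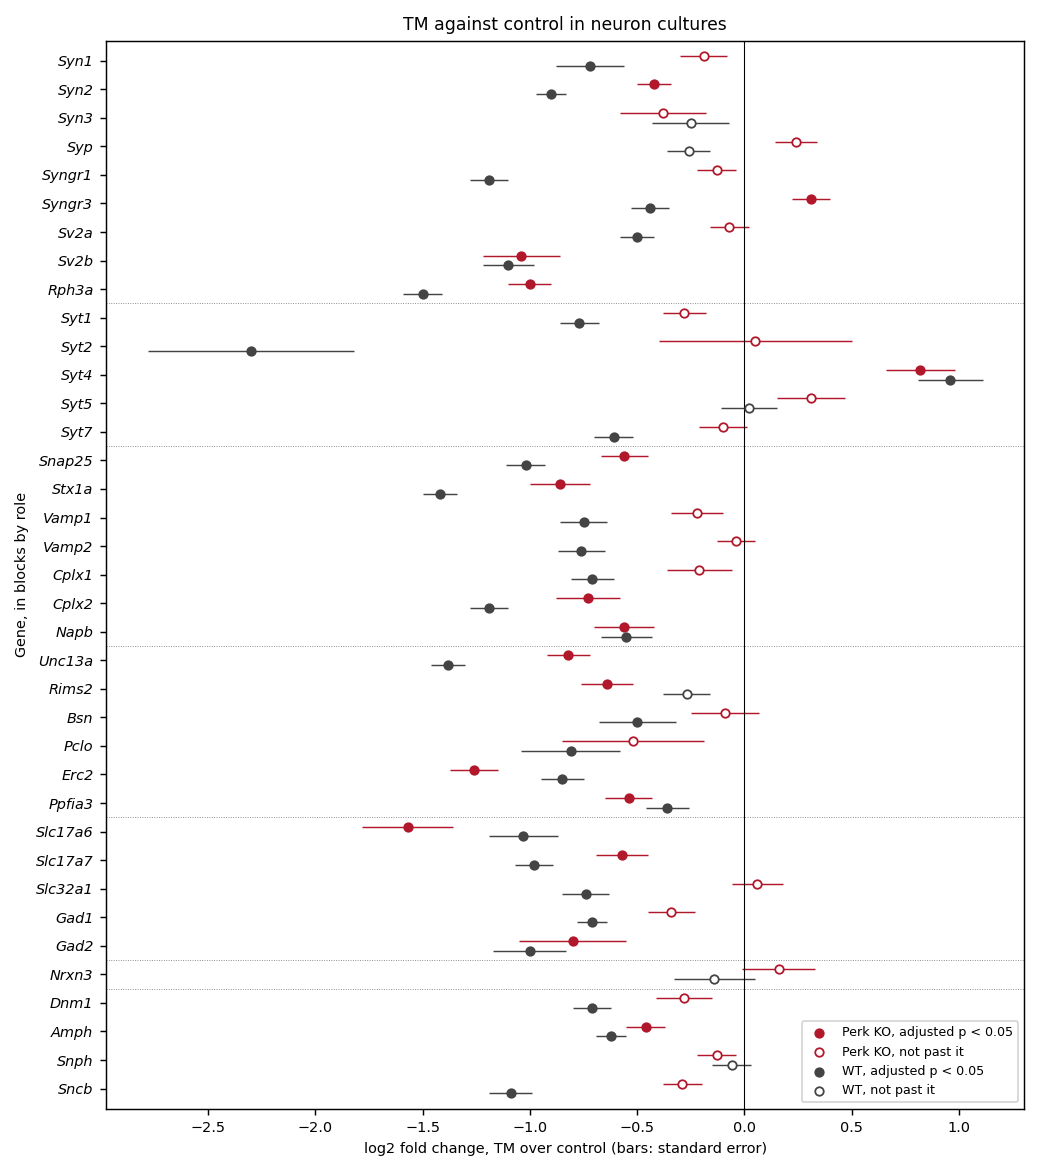
Log2 fold change of TM-treated against control neurons for each member, in Perk KO and WT neurons, with standard errors and Rab3a left out for its low counts. Most WT points lie below 0, with a median of -0.73 over the members, and most Perk KO points lie nearer to 0, with a median of -0.32.

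Among the 10 proteins of the vesicle membrane and its surface, 7 fell with TM in WT neurons and 3 in Perk KO neurons, and 6 had an interaction above 0. Over all genes tested the shares were 24.8%, 10.8% and 14.5%, so fewer calls in Perk KO neurons were common to all genes. Syn1, a synapsin that tethers vesicles in the reserve pool, stood at 174, 216 and 203 CPM in TM-treated Perk KO neurons and 156, 164 and 219.8 in TM-treated WT neurons. Control levels of Syn1 were 228, 226 and 242 CPM in Perk KO neurons and 278, 329.8 and 377 in WT neurons. All TM-treated WT libraries were below all control WT libraries, and its log2 fold change with TM was -0.72 ± 0.16 (adjusted p = 0.00488) in WT neurons and -0.19 ± 0.11 (adjusted p = 0.24) in Perk KO neurons. Syn2, a second synapsin, fell in both genotypes, by a log2 fold change of -0.42 ± 0.08 (adjusted p = 0.0101) in Perk KO and -0.90 ± 0.07 (adjusted p = 2.11e-05) in WT neurons, with an interaction of 0.45 ± 0.09 (adjusted p = 0.00292). Syp, the vesicle protein synaptophysin, stood at 844, 802 and 903 CPM in TM-treated Perk KO neurons and 799.5, 729.6 and 782 in TM-treated WT neurons. Control levels of Syp were 786, 739 and 692 CPM in Perk KO neurons and 1098, 1117 and 866 in WT neurons. Its change with TM did not pass the test in either genotype (0.24 ± 0.10 (adjusted p = 0.114) in Perk KO and -0.26 ± 0.10 (adjusted p = 0.0603) in WT neurons). In CPM the values with TM were all higher than the controls in Perk KO neurons and all lower in WT neurons. CPM are scaled over all 24 libraries and the test over its own 6, and the fall in WT neurons is larger in CPM. The separation in WT neurons therefore depends on the scaling. The difference between the responses was 0.47 ± 0.14 (adjusted p = 0.0208), a call that was lost without any 1 of 5 libraries (control WT replicates 1 and 2, TM-treated WT replicate 2, control Perk KO replicate 3 and TM-treated Perk KO replicate 3; adjusted p up to 0.0676).

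Syngr1 and Syngr3 encode synaptogyrins, proteins of the vesicle membrane. Syngr1 stood at 396, 425 and 441 CPM in TM-treated Perk KO neurons and 246, 237 and 254 in TM-treated WT neurons. Control levels of Syngr1 were 495, 468 and 452 CPM in Perk KO neurons and 653, 665 and 549 in WT neurons. The TM-treated WT libraries were far below the other 9, and the log2 fold change with TM was -1.19 ± 0.09 (adjusted p = 1.4e-05) in WT neurons and -0.13 ± 0.09 (adjusted p = 0.344) in Perk KO neurons. The interaction was 1.03 ± 0.11 (adjusted p = 6.16e-05). Syngr3 stood at 233, 236 and 247 CPM in TM-treated Perk KO neurons and 167, 153 and 177 in TM-treated WT neurons. Control levels of Syngr3 were 216, 190.5 and 186 CPM in Perk KO neurons and 269.8, 255 and 225 in WT neurons. It moved in opposite directions, with a log2 fold change of 0.31 ± 0.09 (adjusted p = 0.0385) in Perk KO and -0.44 ± 0.09 (adjusted p = 0.0042) in WT neurons, and the libraries did not overlap in either genotype. The rise in Perk KO neurons was lost with the correction for GC content (0.22 (adjusted p = 0.13)), without a filter on low counts (0.0785), with the replicate number as a block (0.0745), and without any 1 control library or TM replicate 3 (up to 0.158). The interaction of Syngr3 was 0.72 ± 0.12 (adjusted p = 0.00097) and held without any 1 library.

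Sv2a and Sv2b encode vesicle glycoproteins, and Sv2a is the binding site of the drug levetiracetam. Sv2b stood at 146, 115 and 91.7 CPM in TM-treated Perk KO neurons and 164, 143 and 118 in TM-treated WT neurons. Control levels of Sv2b were 290.4, 249 and 203 CPM in Perk KO neurons and 350.2, 345 and 315 in WT neurons. It fell in both genotypes, by a log2 fold change of -1.04 ± 0.18 (adjusted p = 0.00611) in Perk KO and -1.10 ± 0.12 (adjusted p = 9.71e-05) in WT neurons, with an interaction of 0.03 ± 0.24 (adjusted p = 0.938). Sv2a stood at 378 to 426 CPM in TM-treated WT neurons, below the 579.9 to 671 CPM in control WT neurons, and its fall of -0.50 on the log2 scale was called there and not in Perk KO neurons (-0.07 ± 0.09 (adjusted p = 0.613)). Rph3a, rabphilin, an effector of Rab3 GTPases, stood at 84.7, 97 and 88.1 CPM in TM-treated Perk KO neurons and 77.2, 74.5 and 87.7 in TM-treated WT neurons. Control levels of Rph3a were 204, 180.3 and 172 CPM in Perk KO neurons and 236, 264 and 251 in WT neurons. Control and TM-treated libraries were far apart in both genotypes, and the log2 fold change was -1.0 ± 0.10 (adjusted p = 0.000752) in Perk KO and -1.50 ± 0.09 (adjusted p = 4.32e-06) in WT neurons. Syn3 and Rab3a did not pass the test in either genotype. Rab3a had 0.392 to 0.913 CPM in TM-treated Perk KO neurons and 0.266 to 0.731 CPM in TM-treated WT neurons, with 0.717 to 2.07 CPM in control Perk KO neurons and 0.797 to 1.29 CPM in control WT neurons.

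The calcium sensors moved in both directions. Syt1, the sensor of fast release in forebrain synapses, stood at 432, 489 and 431 CPM in TM-treated Perk KO neurons and 508, 562 and 502 in TM-treated WT neurons. Control levels of Syt1 were 579.6, 536 and 566 CPM in Perk KO neurons and 913, 1004 and 1054 in WT neurons. The control WT libraries were the highest and those of the other 3 groups lay close together. Syt1 fell with TM in WT neurons by a log2 fold change of -0.77 ± 0.09 (adjusted p = 0.000145), while the value in Perk KO neurons did not pass the test (-0.28 ± 0.10 (adjusted p = 0.0749)), and the interaction was 0.46 ± 0.13 (adjusted p = 0.0168). Syt4, an atypical synaptotagmin found on dense-core and other secretory vesicles, was the 1 member called higher in both genotypes. It stood at 220.2, 317 and 292 CPM in TM-treated Perk KO neurons and 318, 366 and 306 in TM-treated WT neurons. Control levels of Syt4 were 186, 151 and 145 CPM in Perk KO neurons and 185, 150.1 and 227 in WT neurons. The log2 fold change was 0.82 ± 0.16 (adjusted p = 0.00815) in Perk KO and 0.96 ± 0.15 (adjusted p = 0.000934) in WT neurons, with no library overlap in either, and the interaction of -0.17 ± 0.24 (adjusted p = 0.632) did not pass the test. Syt7, a sensor linked to asynchronous release, fell in WT neurons (-0.61 ± 0.09 (adjusted p = 0.000678)) and did not pass in Perk KO neurons (-0.10 ± 0.11 (adjusted p = 0.568)). Syt5, another synaptotagmin, stood at 262, 177 and 202 CPM in TM-treated Perk KO neurons and 282, 238 and 246 in TM-treated WT neurons. Control levels of Syt5 were 204, 175 and 151 CPM in Perk KO neurons and 318, 301 and 219 in WT neurons. TM-treated and control libraries overlapped in both genotypes, and neither change was called. Syt2, the fast sensor of many hindbrain synapses, was barely present, at 2.06, 3.84 and 6.76 CPM in TM-treated Perk KO neurons and 0.16, 0.417 and 0.408 CPM in TM-treated WT neurons, with 2.56, 4.61 and 5.4 CPM in control Perk KO neurons and 1.13, 1.74 and 2.66 CPM in control WT neurons. Its fall in WT neurons was called (-2.30 ± 0.48 (adjusted p = 0.00405)) on 3 to 8 counts in each TM-treated library, and its value in Perk KO neurons was 0.05 ± 0.45 (adjusted p = 0.955).

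All 7 SNAREs and SNARE cofactors fell with TM in WT neurons, and 4 of them in Perk KO neurons, against 24.8% and 10.8% of all genes. Snap25, a SNARE of the plasma membrane, stood at 471, 476 and 463 CPM in TM-treated Perk KO neurons and 388, 395 and 352 in TM-treated WT neurons. Control levels of Snap25 were 805, 685 and 637 CPM in Perk KO neurons and 833, 810.4 and 909.5 in WT neurons. TM-treated libraries were below the controls in both genotypes, by a log2 fold change of -0.56 ± 0.11 (adjusted p = 0.00823) in Perk KO and -1.02 ± 0.09 (adjusted p = 3.18e-05) in WT neurons. Snap25 transcripts have the lowest GC content of the members, at 38.7%, and with the GC correction its value in Perk KO neurons was -0.21 (adjusted p = 0.442), no longer called. Stx1a, the plasma membrane SNARE syntaxin-1A whose promoter is given above, stood at 84.9, 66.5 and 80 CPM in TM-treated Perk KO neurons and 72.3, 74.2 and 70.8 in TM-treated WT neurons. Control levels of Stx1a were 169.6, 131 and 129 CPM in Perk KO neurons and 224, 227 and 194 in WT neurons. With TM the values of the genotypes overlapped, and the log2 fold change was -0.86 ± 0.14 (adjusted p = 0.00415) in Perk KO and -1.42 ± 0.08 (adjusted p = 3.47e-06) in WT neurons. Its interaction of 0.53 ± 0.16 (adjusted p = 0.0252) was lost without any 1 of 8 libraries (adjusted p up to 0.0665) and with the GC correction (0.075).

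Vamp2, the vesicle SNARE synaptobrevin-2, stood at 583, 592 and 658 CPM in TM-treated Perk KO neurons and 404, 398 and 507 in TM-treated WT neurons. Control levels of Vamp2 were 660.2, 634 and 639 CPM in Perk KO neurons and 794, 831 and 834 in WT neurons. It fell in WT neurons by a log2 fold change of -0.76 ± 0.11 (adjusted p = 0.000487) and its value in Perk KO neurons, where the libraries overlapped, was -0.04 ± 0.09 (adjusted p = 0.804). The interaction was 0.69 ± 0.14 (adjusted p = 0.00264) and held without any 1 library. Vamp1, its less abundant relative, fell in WT neurons (-0.75 ± 0.11 (adjusted p = 0.000449)) and did not pass in Perk KO neurons (-0.22 ± 0.12 (adjusted p = 0.223)). Complexins bind the assembled SNAREs and control their fusion. Cplx2 stood at 515, 409 and 375 CPM in TM-treated Perk KO neurons and 401, 369 and 364 in TM-treated WT neurons. Control levels of Cplx2 were 866, 687 and 659.9 CPM in Perk KO neurons and 1006, 1002 and 868 in WT neurons. It fell in both genotypes, by -0.73 ± 0.15 (adjusted p = 0.011) in Perk KO and -1.19 ± 0.09 (adjusted p = 1.21e-05) in WT neurons on the log2 scale. Cplx1 fell in WT neurons (-0.71 ± 0.10 (adjusted p = 0.000372)), with a value of -0.21 ± 0.15 (adjusted p = 0.348) in Perk KO neurons. Napb, beta-SNAP, which helps to take SNARE complexes apart, fell by nearly the same amount in both, with a log2 fold change of -0.56 ± 0.14 (adjusted p = 0.0206) in Perk KO and -0.55 ± 0.12 (adjusted p = 0.00498) in WT neurons.

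Of the 6 active zone proteins, 5 fell in WT neurons and 4 in Perk KO neurons, against 24.8% and 10.8% of all genes. Unc13a, Munc13-1, a factor that primes vesicles for fusion, stood at 160.1, 162 and 153 CPM in TM-treated Perk KO neurons and 139, 151 and 155 in TM-treated WT neurons. Control levels of Unc13a were 322, 268 and 269 CPM in Perk KO neurons and 429.6, 458 and 399 in WT neurons. The TM-treated libraries of both genotypes overlapped and lay far below the controls, with a log2 fold change of -0.82 ± 0.10 (adjusted p = 0.00139) in Perk KO and -1.38 ± 0.08 (adjusted p = 3.69e-06) in WT neurons. The interaction of 0.53 ± 0.12 (adjusted p = 0.00507) held without any 1 library, and with the GC correction its adjusted p was 0.0534. Bsn, the scaffold protein bassoon, stood at 189, 287 and 227 CPM in TM-treated Perk KO neurons and 168, 197 and 248 in TM-treated WT neurons. Control levels of Bsn were 254, 236 and 275 CPM in Perk KO neurons and 253, 328 and 378 in WT neurons. The libraries overlapped in Perk KO neurons, where the log2 fold change was -0.09 ± 0.16 (adjusted p = 0.732), and in WT neurons it was -0.50 ± 0.18 (adjusted p = 0.0423). Pclo, piccolo, a second large scaffold, varied widely between replicates, at 37.9, 97.7 and 49.7 CPM in TM-treated Perk KO neurons and 58.7, 62.3 and 64.1 CPM in TM-treated WT neurons, with 77.4 to 110.0 CPM in control Perk KO neurons and 84.4 to 170.1 CPM in control WT neurons.

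Erc2, a scaffold that binds RIM and bassoon, was the 1 member with an interaction called below 0. It stood at 54, 66.4 and 63.5 CPM in TM-treated Perk KO neurons and 73.7, 76.7 and 70.9 in TM-treated WT neurons. Control levels of Erc2 were 160.5, 142 and 151 CPM in Perk KO neurons and 138, 141 and 164 in WT neurons. The log2 fold change was -1.26 ± 0.11 (adjusted p = 0.000456) in Perk KO and -0.85 ± 0.10 (adjusted p = 0.000131) in WT neurons, and the interaction was -0.44 ± 0.15 (adjusted p = 0.0389). That interaction did not pass without a filter on low counts, with DESeq2, with its size factors, with the GC correction, in a fit of all 24 libraries or without any 1 of 7 libraries (adjusted p up to 0.095). Rims2, a RIM protein that tethers calcium channels, stood at 32.2, 42.6 and 36.3 CPM in TM-treated Perk KO neurons and 34.1, 38.3 and 35.7 in TM-treated WT neurons. Control levels of Rims2 were 59.6, 57.7 and 60.4 CPM in Perk KO neurons and 46.6, 44.1 and 53.3 in WT neurons. It fell in Perk KO neurons, by a log2 fold change of -0.64 ± 0.12 (adjusted p = 0.00915), and the value in WT neurons was -0.27 ± 0.11 (adjusted p = 0.0782). Ppfia3, liprin-alpha-3, a scaffold of the active zone, stood at 124, 99 and 103 CPM in TM-treated Perk KO neurons and 158, 149.6 and 149 in TM-treated WT neurons. Control levels of Ppfia3 were 174, 161 and 149.7 CPM in Perk KO neurons and 223, 246 and 184 in WT neurons. It fell by a log2 fold change of -0.54 ± 0.11 (adjusted p = 0.0109) in Perk KO and -0.36 ± 0.10 (adjusted p = 0.0159) in WT neurons.

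Genes of both transmitter systems fell with TM in WT neurons, all 5 of 5, and 3 of 5 in Perk KO neurons, against 24.8% and 10.8% of all genes. Slc17a6 and Slc17a7 encode the vesicular glutamate transporters VGLUT2 and VGLUT1. Slc17a6 stood at 15.7, 23.6 and 26.9 CPM in TM-treated Perk KO neurons and 29.2, 40 and 33.9 in TM-treated WT neurons. Control levels of Slc17a6 were 79.8, 64.5 and 57.9 CPM in Perk KO neurons and 70.3, 69.1 and 93.1 in WT neurons. The 3 lowest libraries were the TM-treated Perk KO ones, and the log2 fold change was -1.57 ± 0.21 (adjusted p = 0.00209) in Perk KO and -1.03 ± 0.16 (adjusted p = 0.000829) in WT neurons. Slc17a7 stood at 189.9, 169.7 and 146 CPM in TM-treated Perk KO neurons and 160.1, 166 and 158 in TM-treated WT neurons. Control levels of Slc17a7 were 272, 272 and 229 CPM in Perk KO neurons and 335, 407 and 319 in WT neurons. It fell by -0.57 ± 0.12 (adjusted p = 0.0118) in Perk KO and -0.98 ± 0.09 (adjusted p = 4.74e-05) in WT neurons on the log2 scale. Counts of Slc17a7 were 5.42 to 12.1 times those of Slc17a6 in TM-treated Perk KO neurons and 4.14 to 5.49 times in TM-treated WT neurons, with 3.4 to 4.22 times in control Perk KO neurons and 3.43 to 5.89 times in control WT neurons. The ratio was thus highest in TM-treated Perk KO neurons, though its lowest value there lay within the ranges of both WT groups.

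Slc32a1 encodes VGAT, which loads GABA and glycine into vesicles, and Gad1 and Gad2 encode the enzymes that make GABA. Slc32a1 stood at 167, 157 and 206 CPM in TM-treated Perk KO neurons and 98.5, 101 and 109 in TM-treated WT neurons. Control levels of Slc32a1 were 172, 165 and 183 CPM in Perk KO neurons and 197, 216 and 159.9 in WT neurons. It fell in WT neurons (-0.74 ± 0.11 (adjusted p = 0.000536)) and overlapped with the controls in Perk KO neurons (0.06 ± 0.12 (adjusted p = 0.745)), with an interaction of 0.77 ± 0.16 (adjusted p = 0.00406) that held without any 1 library. Gad1 stood at 597, 594 and 712 CPM in TM-treated Perk KO neurons and 515, 526 and 549 in TM-treated WT neurons. Control levels of Gad1 were 834, 780.5 and 849 CPM in Perk KO neurons and 964, 973 and 946 in WT neurons. The log2 fold change of Gad1 was -0.34 ± 0.11 (adjusted p = 0.0615) in Perk KO and -0.71 ± 0.07 (adjusted p = 7.74e-05) in WT neurons, and its interaction of 0.34 ± 0.12 (adjusted p = 0.0481) was lost without any 1 library other than replicates 1 and 2 of the TM-treated Perk KO neurons (adjusted p up to 0.158). Gad2 stood at 175, 359 and 341 CPM in TM-treated Perk KO neurons and 166, 208 and 172 in TM-treated WT neurons. Control levels of Gad2 were 541, 484 and 543 CPM in Perk KO neurons and 357, 346 and 509 in WT neurons. TM-treated Perk KO replicate 1 was as low as the WT libraries with TM, and the log2 fold change was -0.80 ± 0.25 (adjusted p = 0.0489) in Perk KO and -1.0 ± 0.17 (adjusted p = 0.0011) in WT neurons. The count of Slc17a7 per count of Slc32a1 was 0.707 to 1.14 in TM-treated Perk KO neurons and 1.45 to 1.63 in TM-treated WT neurons, against 1.25 to 1.65 in control Perk KO and 1.7 to 2 in control WT neurons. These ranges put the TM-treated Perk KO neurons below the other 3 groups.

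**Figure D3:**
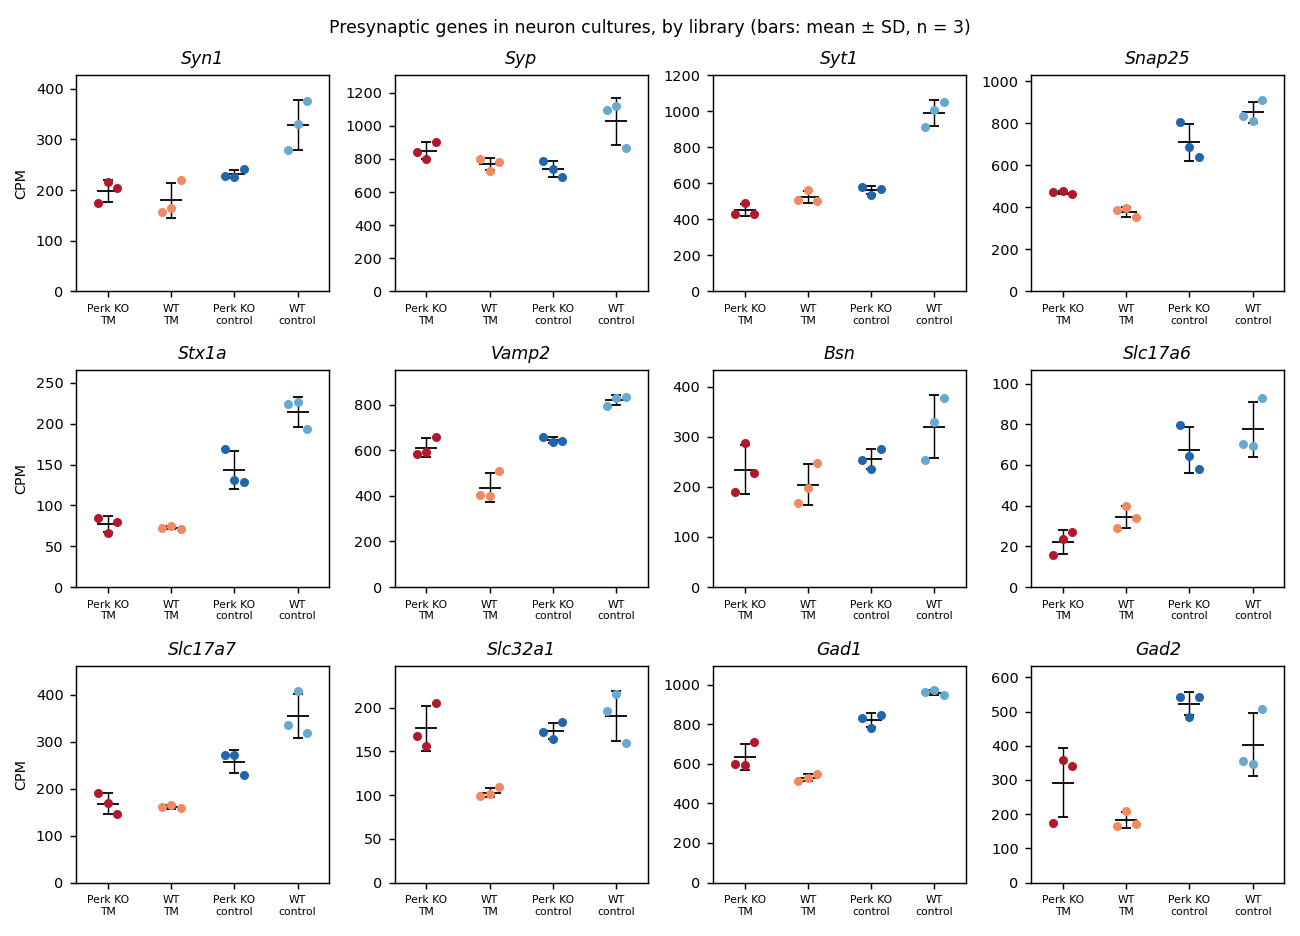
Levels of 12 members in the 12 neuron libraries, in CPM, with each library as a point and bars for the mean ± SD of a group (n = 3). Within WT neurons the points with TM lie below the control points for all 12 genes, and within Perk KO neurons they do not for Syp, Vamp2, Bsn and Slc32a1. In WT neurons Bsn is only narrowly apart, at up to 248.4 CPM with TM and from 253 CPM in controls. These CPM are scaled over all 24 libraries. The tests scale each comparison on its own libraries, where the falls in WT neurons are smaller.

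The other members take part in membrane recovery, adhesion and axonal transport. Dnm1, dynamin-1, which cuts vesicles from the membrane, fell in WT neurons by a log2 fold change of -0.71 ± 0.09 (adjusted p = 0.000221), with -0.28 ± 0.13 (adjusted p = 0.156) in Perk KO neurons. Amph, amphiphysin, a partner of dynamin, fell in both, by -0.46 ± 0.09 (adjusted p = 0.00861) in Perk KO and -0.62 ± 0.07 (adjusted p = 0.000149) in WT neurons. Sncb, beta-synuclein, stood at 155, 159 and 173 CPM in TM-treated Perk KO neurons and 84.6, 89 and 108 in TM-treated WT neurons. Control levels of Sncb were 195, 215 and 203 CPM in Perk KO neurons and 228, 227 and 213 in WT neurons. Its log2 fold change did not pass the test in Perk KO neurons, at -0.29 ± 0.09 (adjusted p = 0.0507), and it fell in WT neurons by -1.09 ± 0.10 (adjusted p = 5.35e-05), with an interaction of 0.77 ± 0.13 (adjusted p = 0.00102). Snph, syntaphilin, which holds mitochondria in place in axons, stood at 107, 109.6 and 101 CPM in TM-treated Perk KO neurons and 128, 126 and 145 in TM-treated WT neurons. Control levels of Snph were 117, 125 and 115 CPM in Perk KO neurons and 157, 162 and 143 in WT neurons. Neither genotype's change with TM passed the test (-0.13 ± 0.09 (adjusted p = 0.295) in Perk KO and -0.06 ± 0.09 (adjusted p = 0.577) in WT neurons). Nrxn3, a neurexin that binds partners across the synaptic cleft, was also not called in either (0.16 ± 0.17 (adjusted p = 0.532) in Perk KO and -0.14 ± 0.19 (adjusted p = 0.566) in WT neurons).

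Without TM, many members were modestly lower in Perk KO than in WT neurons. In control neurons 17 of 38 were called lower in Perk KO and 2, Rims2 and Syt2, higher, where 9.16% of the 15757 genes tested were called lower and 12.2% higher. The median log2 fold change was -0.29 over the members. Syt1 was lowest against WT, at -0.76 ± 0.09 (adjusted p = 0.00506), followed by Syt5 at -0.59 ± 0.15 (adjusted p = 0.0251), Unc13a at -0.52 ± 0.09 (adjusted p = 0.011) and Stx1a at -0.52 ± 0.11 (adjusted p = 0.0186), none with an overlap of libraries. Syn1 at -0.44, Syp at -0.41, Slc17a7 at -0.39, Dnm1 at -0.39 and Vamp2 at -0.28 were also called lower, as were Syn2, Syngr1, Rph3a, Syt7, Vamp1, Ppfia3, Amph and Snph, at -0.26 to -0.37. Rims2 was higher at 0.37 ± 0.11 (adjusted p = 0.0415), and Snap25, Slc17a6, Slc32a1 and Gad1 did not pass, at -0.20, -0.14, -0.07 and -0.16. Of these 19 calls that of Syt1 alone held without any 1 library. Without control Perk KO replicate 1, 2 or 3 the number of lower members was 8, 1 and 1, and without control WT replicate 1, 2 or 3 it was 4, 3 and 20, while the counts over all genes were 257 to 5414. With the GC correction 10 members were lower. Of 15 neuron markers 7 were lower and 1 higher, and of 14 astrocyte markers 8 were higher and 0 lower. Of 11 oligodendrocyte lineage markers 5 were lower and 1 higher, of 9 microglia markers 4 were higher, and of 10 fibroblast and mural cell markers 7 were higher and 1 lower.

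With TM, some members were higher in Perk KO than in WT neurons. In TM-treated neurons 10 of 38 were called higher in Perk KO and 3, Slc17a6, Ppfia3 and Snph, lower, where 20.7% of the 16026 genes tested were called higher and 19.4% lower. The share of members called higher was thus near that of all genes. Sncb was higher in Perk KO by a log2 fold change of 0.78 ± 0.12 (adjusted p = 0.00127), Slc32a1 by 0.77 ± 0.12 (adjusted p = 0.00165), Syngr1 by 0.76 ± 0.09 (adjusted p = 0.000463) and Syngr3 by 0.51 ± 0.10 (adjusted p = 0.00337), with no overlap of libraries. Syt2 was higher by 3.64 ± 0.55 (adjusted p = 0.00127), from the low levels given above. Those 5 calls held without any 1 library, while those of Vamp2 (0.47 ± 0.13 (adjusted p = 0.0185)), Cplx1 (0.46 ± 0.15 (adjusted p = 0.0384)), Sv2a (0.32 ± 0.10 (adjusted p = 0.0372)), Snap25 (0.30 ± 0.10 (adjusted p = 0.0361)) and Syn2 (0.26 ± 0.09 (adjusted p = 0.0469)) did not. They were lost without TM-treated WT replicate 1 or 2 or TM-treated Perk KO replicate 3 (adjusted p up to 0.183), and all but that of Vamp2 also without TM-treated WT replicate 3. Among the lower members, Ppfia3 (-0.50 ± 0.11 (adjusted p = 0.00867)) held without any 1 library. Slc17a6 (-0.65 ± 0.21 (adjusted p = 0.0354)) did not hold without any 1 TM-treated WT library or Perk KO replicate 1 (up to 0.124), nor Snph (-0.34 ± 0.10 (adjusted p = 0.0232)) without any 1 TM-treated WT library or Perk KO replicate 3 (up to 0.0927). With the replicate number as a block, which pairs these libraries, 6 members were lower, adding Syt5 (-0.28 (adjusted p = 0.0466)), Erc2 (-0.28 (adjusted p = 0.0484)) and Sv2b (-0.29 (adjusted p = 0.0295)), and Gad2 was also higher (0.61 (adjusted p = 0.0148)). In the same libraries 15 of 15 astrocyte markers were higher in Perk KO, and of 15 neuron markers 3 were lower and 0 higher. Of 8 oligodendrocyte lineage markers 5 were higher and 1 lower, of 7 microglia markers 6 were higher, and of 10 fibroblast and mural cell markers 7 were higher. Their part in the members' differences was not tested. This comparison and the one in control neurons share libraries with the TM comparisons, so the values stand side by side and are not independent.

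**Figure D4:**
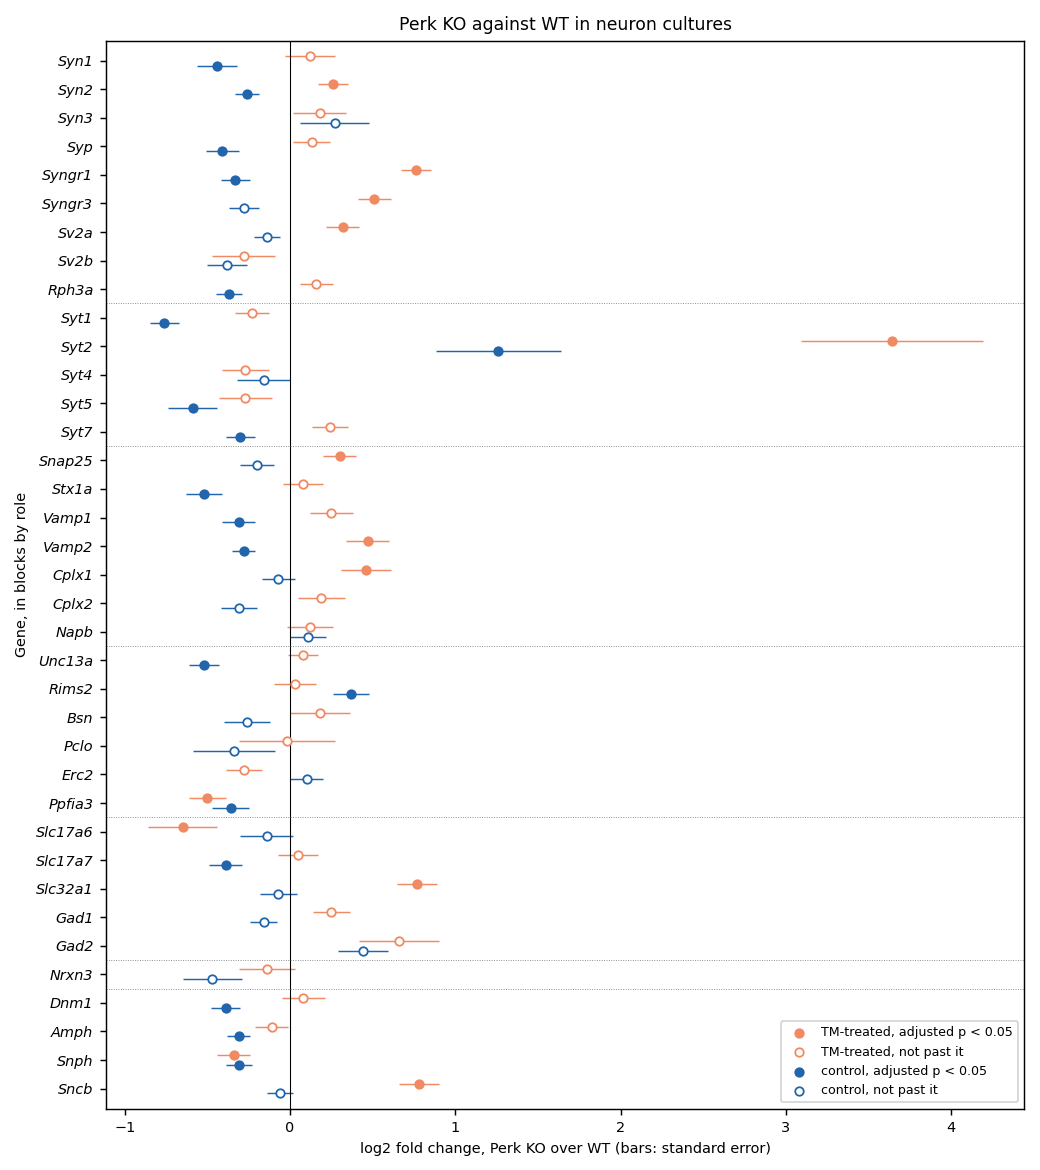
Log2 fold change of Perk KO against WT neurons for each member, in TM-treated and in control neurons, with standard errors and Rab3a left out. Sncb, Slc32a1 and Syngr1 lie at 0.78, 0.77 and 0.76 in TM-treated neurons and at -0.06, -0.07 and -0.33 in control neurons.

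The astrocyte cultures held some members at measurable levels, and these comparisons were added after values had been seen. In WT astrocytes 27 members had enough counts for the test, of which 12 were called lower with TM and 3, Syt4, Napb and Syt7, higher, where 27.7% of the 14907 genes tested were called lower and 25.0% higher. The share of members called lower was 12 of 27 with a median log2 fold change of -0.62. With the replicate number as a block, which pairs the astrocyte libraries, Amph (-0.77, adjusted p = 0.0311) was also lower and Cplx2 (0.21, 0.0253) higher. In the same comparison 12 of 14 astrocyte markers were lower, with a median of -2.46, as were 7 of 10 microglia, 4 of 6 oligodendrocyte lineage, 3 of 8 fibroblast and mural cell and 8 of 13 neuron markers, and 2 neuron markers were higher. The part of these markers' cells in the members' changes was not tested. Syt4 stood at 7.07, 12.1 and 12 CPM in TM-treated Perk KO astrocytes and 190.4, 203 and 185 CPM in TM-treated WT astrocytes, with 0.966, 3.6 and 2.64 CPM in control Perk KO astrocytes and 15.8, 32.2 and 33.2 CPM in control WT astrocytes. The groups did not overlap and the TM-treated WT libraries were the highest by far. Its log2 fold change with TM was 2.10 ± 0.40 (adjusted p = 0.0113) in Perk KO and 2.82 ± 0.26 (adjusted p = 0.000111) in WT astrocytes, with an interaction of -0.73 ± 0.50 (adjusted p = 0.282) that did not pass. Between genotypes it was -4.18 ± 0.20 (adjusted p = 3.4e-06) with TM and -3.47 ± 0.44 (adjusted p = 0.00913) in controls, and that control value was lost without control WT replicate 2 (adjusted p = 0.0547).

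Napb stood at 16.8, 21.9 and 18.6 CPM in TM-treated Perk KO astrocytes and 84.1, 101 and 79.7 CPM in TM-treated WT astrocytes, with 9.61, 12.2 and 12.1 CPM in control Perk KO astrocytes and 20, 25.5 and 26.3 CPM in control WT astrocytes. It rose in both genotypes, by a log2 fold change of 0.75 ± 0.16 (adjusted p = 0.0161) in Perk KO and 1.86 ± 0.14 (adjusted p = 5.47e-05) in WT astrocytes, while in neurons it fell in both. Its interaction of -1.13 ± 0.21 (adjusted p = 0.0016) was below 0 and held without any 1 library. The rise in Perk KO astrocytes was lost without TM replicate 2 (adjusted p = 0.0789). Syt7 stood at 1.47, 2 and 1.8 CPM in TM-treated Perk KO astrocytes and 5.18, 6.83 and 7.42 CPM in TM-treated WT astrocytes, with 0.805, 0.218 and 0.808 CPM in control Perk KO astrocytes and 0.614, 2.03 and 2.23 CPM in control WT astrocytes. It rose in WT astrocytes (1.99 ± 0.42 (adjusted p = 0.00554)). In Perk KO astrocytes it missed the test (1.51 ± 0.45 (adjusted p = 0.0711)) and was called with the replicate number as a block (1.54 (adjusted p = 0.0153)).

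The members that fell in WT astrocytes with TM included 5 of the 7 vesicle proteins tested, where 27.7% of all genes tested were called lower. Syt5 stood at 21.2, 20.3 and 18.4 CPM in TM-treated Perk KO astrocytes and 3.36, 2.68 and 2.56 CPM in TM-treated WT astrocytes, with 19.3, 16 and 18.4 CPM in control Perk KO astrocytes and 14.3, 10.5 and 10.6 CPM in control WT astrocytes. The TM-treated WT libraries were the lowest, with a log2 fold change of -2.06 ± 0.23 (adjusted p = 0.000272). Syngr1 stood at 22.3, 21.5 and 23.2 CPM in TM-treated Perk KO astrocytes and 4.33, 3.41 and 2.72 CPM in TM-treated WT astrocytes, with 19.8, 18.9 and 15.7 CPM in control Perk KO astrocytes and 14.1, 11.2 and 12.5 CPM in control WT astrocytes. Its log2 fold change was -1.87 ± 0.23 (adjusted p = 0.000409) in WT astrocytes. Syn2 stood at 19.3, 17.3 and 18.2 CPM in TM-treated Perk KO astrocytes and 5.75, 5.24 and 5.29 CPM in TM-treated WT astrocytes, with 31.8, 27.6 and 25.7 CPM in control Perk KO astrocytes and 16.6, 21.3 and 20.2 CPM in control WT astrocytes. It fell by -0.64 ± 0.12 (adjusted p = 0.0107) in Perk KO and -1.85 ± 0.16 (adjusted p = 8.56e-05) in WT astrocytes on the log2 scale. Snph fell in WT astrocytes by -1.75 ± 0.31 (adjusted p = 0.0023), at 5.13, 3.66 and 3.31 CPM with TM and 18.8, 10.8 and 10.3 CPM in controls, and Sv2a by -3.27 ± 0.45 (adjusted p = 0.000718), at 0.228, 0.488 and 0.214 CPM with TM and 3.64, 3.29 and 1.97 CPM in controls. Vamp2, Unc13a, Bsn, Syp, Syngr3, Syt1 and Nrxn3 were the other 7 that fell. The calls of Syp, Syngr3, Syt1 and Nrxn3 were lost without 1 library, among them control replicate 3 for the first 3 (adjusted p up to 0.0712) and control replicate 1 for Nrxn3 (0.0531).

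In Perk KO astrocytes 1 member, Syn2, was called lower with TM and 4, Syt4, Amph, Sv2a and Napb, higher, of 27 tested, where 4.6% of the 15164 genes tested were called lower and 5.55% higher. Of 14 astrocyte markers 5 were lower and 1 higher there, of 10 neuron markers 0 were called, and of 7 oligodendrocyte lineage markers 2 were lower and 1 higher. With the block Syngr1 (0.30, adjusted p = 0.04) was also higher. Amph stood at 8.11, 8.77 and 8.79 CPM in TM-treated Perk KO astrocytes and 2.9, 1.58 and 2.03 CPM in TM-treated WT astrocytes, with 4.13, 4.2 and 3.67 CPM in control Perk KO astrocytes and 3.92, 3.89 and 3.08 CPM in control WT astrocytes. It was highest in TM-treated Perk KO astrocytes, with a log2 fold change of 1.09 ± 0.17 (adjusted p = 0.00379) there. The calls of Syn2 and Sv2a were lost when 1 library was left out, Syn2 without TM replicate 2 (adjusted p = 0.0651) and Sv2a without any 1 library but TM replicate 2 (up to 0.111). The interaction was above 0 for 11 of 27 members and below 0 for Napb, where 19.8% of 15114 genes were above and 14.6% below. With the block Syt1 (1.33, adjusted p = 0.0331) and Nrxn3 (0.78, 0.0345) were also above 0. Of 14 astrocyte markers 9 were above 0, of 7 oligodendrocyte lineage markers 4 and of 10 neuron markers 2, with 1 neuron marker below. Among the 11, Sv2a (4.03 ± 0.45 (adjusted p = 4.8e-05)), Syt5 (2.20 ± 0.23 (adjusted p = 3.39e-05)), Syngr1 (2.16 ± 0.23 (adjusted p = 4.12e-05)) and Amph (1.83 ± 0.31 (adjusted p = 0.00088)) were largest. The value of Sv2a rests on 4 to 8 counts in each TM-treated WT library. Of the 11, 7 were also above 0 in neurons (Syn2, Syp, Syngr1, Syngr3, Sv2a, Vamp2 and Unc13a), 63.6% of the astrocyte list and 41.2% of the 17 in neurons. Of those 17, Rph3a, Syt2, Snap25, Slc32a1 and Sncb were under the minimum count in astrocytes and could not be called there. Over all genes 1438 were above 0 in both, 48.1% of the 2992 in astrocytes and 62.4% of the 2304 in neurons. The neuron call of Syp was lost without any 1 of 5 libraries and that of Sv2a without any 1 of 4 (adjusted p up to 0.074). The astrocyte calls of Syp, Vamp2 and Bsn were lost without 1 library (adjusted p up to 0.104), and the other 8 held.

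Between genotypes, 14 of 27 members were higher and 5 lower in TM-treated Perk KO than in TM-treated WT astrocytes, where 32.1% of 14927 genes were higher and 31.2% lower. In the same libraries 13 of 14 astrocyte markers were higher in Perk KO, with a median of 2.52, as were 5 of 8 oligodendrocyte lineage, 3 of 8 fibroblast and mural cell and 6 of 11 neuron markers, while 2 neuron markers were lower. With the block Vamp1 (0.48, adjusted p = 0.0193) and Syt1 (1.13, 0.0363) were also higher and Erc2 (-0.58, 0.0488) lower. Syngr1 differed by 2.72 ± 0.19 (adjusted p = 1.14e-05), Syt5 by 2.84 ± 0.18 (adjusted p = 7.36e-06), Snph by 2.54 ± 0.20 (adjusted p = 1.96e-05) and Syn2 by 1.79 ± 0.14 (adjusted p = 2.31e-05). Syt4, Napb (-2.17 ± 0.14 (adjusted p = 8.89e-06)), Syt7, Rims2 and Ppfia3 were the lower members, of which 3 remained in number without TM-treated WT replicate 2 or TM-treated Perk KO replicate 1. In control astrocytes 5 members were higher in Perk KO and 3, Syt4, Napb and Rims2, lower, where 4.71% of 15196 genes were higher and 10.2% lower. There 4 of 14 astrocyte markers were higher and 2 of 12 neuron markers lower, and with the block Snph (0.74, adjusted p = 0.000745) was also higher and Ppfia3 (-0.70, 0.0235) lower. Vamp2 stood at 121, 106 and 105 CPM in control Perk KO and 67.1, 64.7 and 78.8 CPM in control WT astrocytes, a log2 fold change of 0.67 ± 0.11 (adjusted p = 0.0119). Without control WT replicate 2, 0 members were called in either direction in control astrocytes and 50 genes in all. The count of higher members was 1 without control WT replicate 3 or control Perk KO replicate 1 or 2, and 2 without control Perk KO replicate 3. Summed over all members, astrocytes held 399 to 418 CPM in the TM-treated Perk KO group, 502 to 569.9 CPM in the TM-treated WT group, 335 to 408 CPM in the control Perk KO group and 335 to 379 CPM in the control WT group. The higher sum with TM in WT astrocytes rests on Syt4 and Napb. They averaged 192.7 and 88.2 CPM with TM and 27.1 and 23.9 CPM in controls, while 12 members were called lower and 3 higher. The neuron markers in astrocytes summed to 646 to 811 CPM in TM-treated Perk KO, 494 to 673 CPM in TM-treated WT, 672 to 789.8 CPM in control Perk KO and 611 to 671 CPM in control WT astrocytes. Their part in these values was not tested. With the replicate number as a block the calls rose in number over all genes, to 4288 with TM in Perk KO astrocytes and 5730 between control genotypes, against 1539 and 2260 without it, and the members called were 7 and 10.

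**Figure D5:**
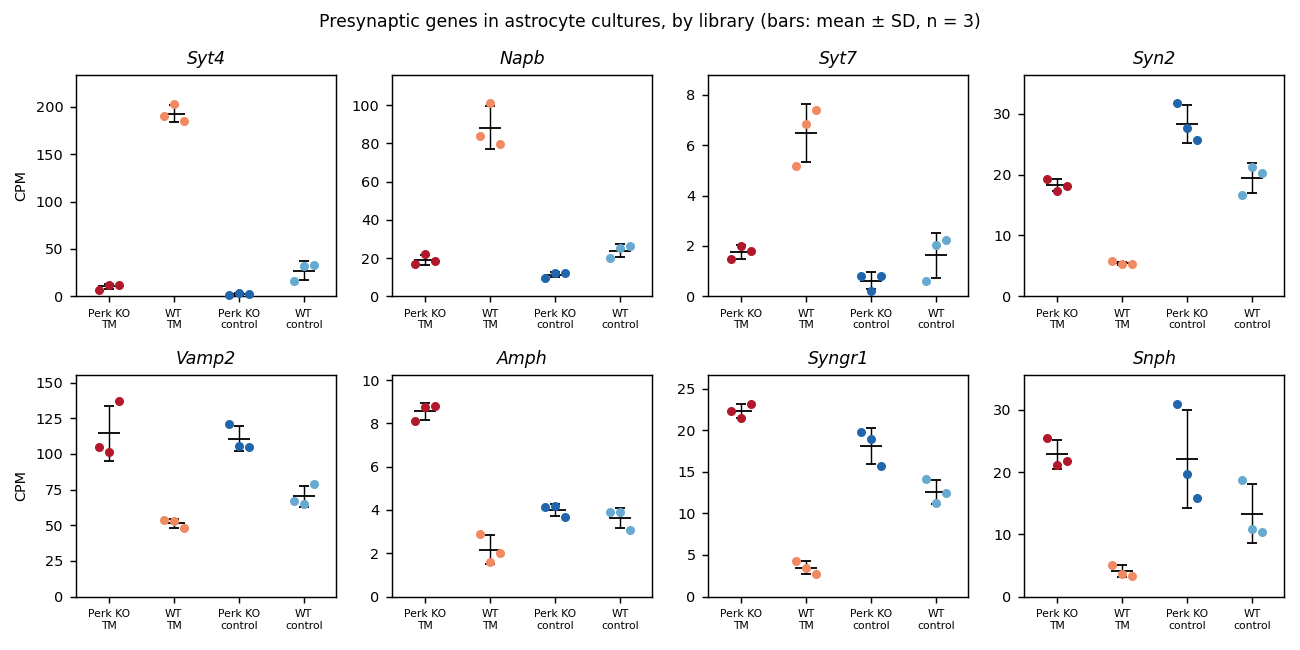
Levels of 8 members in the 12 astrocyte libraries, in CPM, with each library as a point and bars for the mean ± SD of a group (n = 3). Syt4, Napb and Syt7 are highest in TM-treated WT astrocytes, Syn2, Syngr1 and Snph are lowest there, and Amph is highest in TM-treated Perk KO astrocytes.

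A list of 56 other presynaptic genes was set beside the members. In WT neurons 35 of 54 tested were lower with TM and 5 higher, with a median log2 fold change of -0.64. Over all genes tested 24.8% were lower there and 27.0% higher. In Perk KO neurons 24 of 56 were lower and 1 higher, with a median of -0.41, against 10.8% and 13.1% of all genes. Syt11, a synaptotagmin that does not bind calcium, fell in WT neurons (-2.00 ± 0.09, adjusted p = 7.82e-07), as did Nsf (-1.11 ± 0.08, 1.29e-05), the ATPase that takes SNARE complexes apart. Rims3, a short RIM protein, rose in WT neurons by 0.83 ± 0.08 (7.35e-05), and Unc13b, Munc13-2, by 0.88 ± 0.12 (0.000336), while Unc13a fell. In Perk KO neurons Doc2b, a calcium-binding protein of release, fell by 1.20 on the log2 scale (0.000532) and Cplx3, a complexin, rose by 0.59 (0.0393). The interaction was above 0 for 13 and below 0 for 8 of 55 genes, against 14.5% and 15.4% of all genes. The share below 0 was thus near that of all genes. Syt11 (1.69 ± 0.10, 1.03e-06) and Sv2c (1.31 ± 0.16, 0.000142) were among those above 0 and Rims3 (-0.73 ± 0.13, 0.00189) among those below. Between genotypes, 13 were lower and 14 higher of 55 in TM-treated Perk KO neurons, against 19.4% and 20.7% of all genes. In control Perk KO neurons 14 were lower and 7 higher of 56, against 9.16% and 12.2% of all genes. Both shares with TM, and that called higher in controls, were near those of all genes. Synpr, synaptoporin, was higher in Perk KO in both, by 2.16 ± 0.15 (4.05e-05) with TM and 1.12 ± 0.14 (0.00661) in controls.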

How the data were processed

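RNA of 24 libraries was sequenced after preparation with a kit that does not mark the strand (NEBNext Ultra), per the labels' protocols. Reads were processed with fastp, HISAT2 and featureCounts on GRCm38.p6, per the submitters' processing notes, with versions and gene annotation not given in the sources used here. Raw read counts per gene were deposited by the authors in 8 tables, each of 2 groups, per the file headers. The deposited normalised signal columns and the FPKM columns were not used here. A log2 fold change and a p-value per gene, made by the authors with DESeq2 per the submitters' processing notes, are deposited too. In the authors' deposited table of WT neurons 31 members were called with TM, in that of Perk KO neurons 17, and between genotypes 13 in TM-treated and 21 in control neurons. The counts of a library present in several tables were joined by gene identifier and 0 counts differed. The tables list no gene with 0 counts in all 6 libraries, so a gene missing from a table was taken as 0 there.

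The test of counts was edgeR's quasi-likelihood F test (version 4.0.16, R 4.3.3) after TMM normalisation, each comparison on its own 6 libraries (4 residual degrees of freedom) and the interaction on 12 (8 residual degrees of freedom). Genes averaging 10 counts or more were tested, p-values were adjusted over all of them by Benjamini and Hochberg, and an adjusted p under 0.05 was called. The standard error is the absolute log2 fold change over the root of the F statistic. Levels are CPM with TMM factors over all 24 libraries, and per kilobase by the deposited gene length. Fold changes use the TMM factors of their own fit, so ratios of CPM can differ from them. In WT neurons the members' CPM with TM stood lower against control than the tested fold changes give. Overlap of libraries was judged on CPM. CPM floors cover counting error only, and PCR reads without molecular identifiers are not independent molecules. The ± values are SDs over 3 libraries or standard errors of the fit, and both include the spread among libraries.

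The members and gene lists were chosen with earlier results of these data known, and the 5 comparisons within astrocytes were added after values had been seen. Values per library are given for 12 fixed members and for up to 4 called members in each direction of a comparison with the largest changes, a mean of at least 100 counts and no overlap of libraries; of the other lists up to 3 called genes per direction with the smallest p were eligible to be named. Some of these are not reported here. Alternatives were no filter, edgeR with the size factors of DESeq2, DESeq2 itself (1.42.0), an offset for transcript GC content in 20 bins (GENCODE M21, a value for 99.9% of tested genes), the replicate number as a block, wider fits of 12 or 24 libraries, and each library left out.

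Replicate numbers come from the titles, which do not say what a number marks. The deviations of same-numbered libraries correlated over genes at 0.134 to 0.307 between TM-treated Perk KO and TM-treated WT neurons. Among astrocyte groups the correlation was 0.213 to 0.554. For these, fits with the replicate number as a block are given beside the main tests, none of which holds a block. Between TM-treated and control neurons it was -0.059 to 0.213 in Perk KO and -0.218 to 0.176 in WT. Between control Perk KO and control WT neurons it was 0.085 to 0.255, and between control WT neurons and astrocytes -0.097 to 0.138. These were taken as not paired. The ranges for control and for TM-treated genotypes of neurons overlap, so the line between them is a choice. Between control genotypes of neurons the block added 5 member calls.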

Additional observations from a re-analysis of the deposited data

Results flagged for a closer look

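The response to TM was called different between the genotypes, by the test of the interaction, for 18 members in neurons and 12 in astrocytes. Each value is the log2 response of Perk KO cells minus that of WT cells. Over all genes tested 14.5% were above 0 and 15.4% below in neurons, and 19.8% and 14.6% in astrocytes. Of the 17 members above 0 in neurons 8 held without any 1 library, and of the 11 in astrocytes 8 did. Erc2, below 0 in neurons, did not hold, and Napb, below 0 in astrocytes, did. In neurons Gad1 was lost without any 1 of 10 libraries, and Stx1a and Syt2 without any 1 of 8.

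In neurons the difference was above 0 for the vesicle proteins Syn2 (0.45), Syp (0.47), Syngr1 (1.03), Syngr3 (0.72), Sv2a (0.40) and Rph3a (0.46). Among the calcium sensors it was above 0 for Syt1 (0.46), Syt7 (0.48) and, at low counts, Syt2 (2.31). Of the SNAREs it was above 0 for Snap25 (0.43), Stx1a (0.53), Vamp1 (0.50) and Vamp2 (0.69). It was also above 0 for Unc13a (0.53), Slc32a1 (0.77), Gad1 (0.34) and Sncb (0.77), and below 0 for Erc2 (-0.44).

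In astrocytes the difference was above 0 for Syn2 (1.20), Syp (1.35), Syngr1 (2.16), Syngr3 (1.46), Sv2a (4.03), Syt5 (2.20), Vamp2 (0.50), Unc13a (1.23), Bsn (1.34), Amph (1.83) and Snph (1.77). It was below 0 for Napb (-1.13).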

How the results depend on the processing

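Over members and comparisons 4510 values kept their direction and side of the threshold, 356 were no longer called, 153 became called and 1 changed sign: Snap25 between TM-treated Perk KO and WT neurons was -0.00 (adjusted p = 0.986) with the replicate block and GC correction. With TM in Perk KO neurons 1 member was higher without a filter, with the GC correction and with the replicate block, alone or with GC correction. Between control genotypes 10 members were lower in Perk KO neurons with the GC correction, and 1 was higher in a fit of 12 libraries. Between TM-treated genotypes 6 members were lower in Perk KO neurons with the replicate block, alone or with GC correction, and 5 in a fit of 12 libraries. An interaction below 0 was called for 0 members in neurons without a filter, with DESeq2's size factors, DESeq2, the GC correction or a fit of 24 libraries, and for 2 with the replicate block and GC correction. In astrocytes 5 members were higher with TM in WT with the replicate block and GC correction, and 3 were higher in control Perk KO without a filter. Over all genes the replicate block called 4288 with TM in Perk KO astrocytes (4343 with GC correction) and 5730 between control genotypes (5732). Where numbers do not pair the libraries the block moved no other count by over 1.5 times, and the cause of these shifts was not tested.

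Leaving out 1 library gave, for members lower, 28 to 30 with TM in WT neurons, 11 to 18 in Perk KO neurons, 1 to 20 between control genotypes, 1 to 5 between TM-treated genotypes, 0 to 2 for the interaction and 0 to 0 between cell types. For members higher it gave 1 to 1, 1 to 3, 0 to 5, 5 to 12, 8 to 20 and 37 to 38, and for all genes 6649 to 8719, 1972 to 5844, 257 to 5414, 4620 to 6977, 3700 to 5721 and 10181 to 11169. In astrocytes, for TM in WT, TM in Perk KO, control genotypes, TM-treated genotypes and the interaction, members lower were 9 to 13, 0 to 1, 0 to 4, 3 to 6 and 1 to 2, members higher 3 to 4, 3 to 3, 0 to 6, 11 to 14 and 8 to 12, and all genes 6185 to 8223, 807 to 1321, 50 to 4138, 8175 to 9956 and 4165 to 5833. Arms left with 2 libraries were assumed to vary like the rest of the fit. Depth limits Rab3a and Syt2 in neurons, and in astrocytes the 11 members under the minimum count. It also limits called astrocyte members near the floor. In TM-treated WT astrocytes Sv2a had 4 to 8 counts per library and Gad1 2 to 13.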
